A study of Homo sapiens with 34 samples.

Results

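Mantle cell lymphoma (MCL) cell lines with high CXCR4 were set against MCL lines with low CXCR4. The 11 MCL lines were ranked by the deposited CXCR4 value, the 4 highest and the 4 lowest were compared, and the middle 3 were left out. The comparison used 8 of the 34 lymphoma lines of the series. The CXCR4-high lines were SP-53, Z-138, Jeko-1 and UPN1, and the CXCR4-low lines were Mino, HBL-2, GRANTA519 and REC-1. SP-49, MAVER-1 and JVM2 lay between them.

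The study concerned CXCR4 as a target for imaging and radioligand therapy of MCL. RNA of 34 established human lymphoma lines was sequenced, with 1 library per line. Beside the 11 MCL lines stood lines of diffuse large B-cell lymphoma (DLBCL), of which 14 were of germinal centre B-cell (GCB) and 6 of activated B-cell (ABC) origin, and 3 lines of Burkitt lymphoma (BL). The labels named no treatment, genotype or culture condition for any line. They marked 30 lines as taken from earlier data, including 3 of the 4 CXCR4-high and 3 of the 4 CXCR4-low lines, whereas UPN1, HBL-2 and MAVER-1 carried no such mark. Each line is a culture of tumour cells seen in a single library, so a p-value measures the spread between lines, and the labels do not say whether any lines share a patient. In bulk RNA of a culture, fewer cells expressing a gene and less RNA of it per cell cannot be told apart.

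CXCR4 is a G protein-coupled receptor on B cells. Its ligand CXCL12, made by stromal cells of the bone marrow and lymph node, triggers Gi proteins, phosphoinositide 3-kinase and AKT, and draws B cells into these niches. The receptor is removed from the membrane after phosphorylation by GRK kinases and binding of arrestins. FOXO1, a forkhead transcription factor held out of the nucleus by AKT, is a known activator of CXCR4 in B cells. In MCL, a B-cell tumour that overexpresses cyclin D1, CXCR4 takes part in homing to the marrow and in adhesion to stroma.

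The promoter of CXCR4 is shown because the lines were ranked by this gene, and those of CDKN1B, KLHL24 and PIK3IP1 because these listed FOXO1 targets separated the groups, as given below. The windows are the 250 bases before the annotated start in RefSeq, build GRCh38.p14, printed 5′ to 3′ on the strand of the gene. They lie at chr2:136118150-136118399 on the minus strand for CXCR4, chr12:12717118-12717367 on the plus strand for CDKN1B, chr3:183635373-183635622 on the plus strand for KLHL24 and chr22:31292535-31292784 on the minus strand for PIK3IP1. Capitals mark the NRF1 half-site GCGCATG, searched on both strands, whose forward and reverse copies overlap in the CXCR4 window.
CXCR4: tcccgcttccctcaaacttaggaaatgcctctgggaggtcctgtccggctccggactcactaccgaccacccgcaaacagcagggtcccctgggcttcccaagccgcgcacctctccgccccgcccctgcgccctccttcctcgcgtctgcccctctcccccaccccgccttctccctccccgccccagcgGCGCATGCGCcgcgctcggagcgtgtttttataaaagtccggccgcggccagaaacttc
CDKN1B: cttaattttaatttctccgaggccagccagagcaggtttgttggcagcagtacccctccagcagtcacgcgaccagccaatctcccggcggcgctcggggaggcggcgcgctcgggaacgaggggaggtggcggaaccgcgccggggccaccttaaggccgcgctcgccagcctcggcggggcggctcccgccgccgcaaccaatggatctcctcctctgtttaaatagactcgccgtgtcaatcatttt
KLHL24: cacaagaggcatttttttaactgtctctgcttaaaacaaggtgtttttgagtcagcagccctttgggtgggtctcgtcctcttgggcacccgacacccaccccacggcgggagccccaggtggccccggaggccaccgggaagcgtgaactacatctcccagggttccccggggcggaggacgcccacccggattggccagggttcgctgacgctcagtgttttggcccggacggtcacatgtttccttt
PIK3IP1: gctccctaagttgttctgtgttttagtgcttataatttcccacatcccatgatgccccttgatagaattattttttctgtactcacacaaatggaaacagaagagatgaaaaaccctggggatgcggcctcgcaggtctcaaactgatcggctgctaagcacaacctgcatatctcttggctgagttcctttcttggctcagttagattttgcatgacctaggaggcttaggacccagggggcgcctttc
The NRF1 half-site began 59 bases before the CXCR4 start and was held by 3.96% of the 27305 promoters of the same length. A forkhead core, TGTTTAC on either strand, was in none of the 4 windows and was held by 3.01% of all promoters. A match, or its lack, describes these letters and this window only.

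Values are the deposited variance-stabilised read counts in log2 units, where a gene with 0 reads sat at 4.55. CXCR4 was 15.37 in SP-53, 14.82 in Z-138, 14.78 in Jeko-1 and 14.71 in UPN1. The CXCR4-low lines had 13.18 in Mino, 12.10 in HBL-2, 11.15 in GRANTA519 and 10.17 in REC-1. The groups were chosen by these CXCR4 values, so their means, 14.92 ± 0.30 in CXCR4-high and 11.65 ± 1.29 in CXCR4-low lines (SD, n = 4 each), are a description and were not tested. The lines just outside the bounds were SP-49 at 14.36, which lay 0.35 below UPN1, and JVM2 at 13.52, which lay 0.34 above Mino. MAVER-1 had 14.25. Every CXCR4-low line still held at least 2297 CXCR4 reads.

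**Figure D1:**
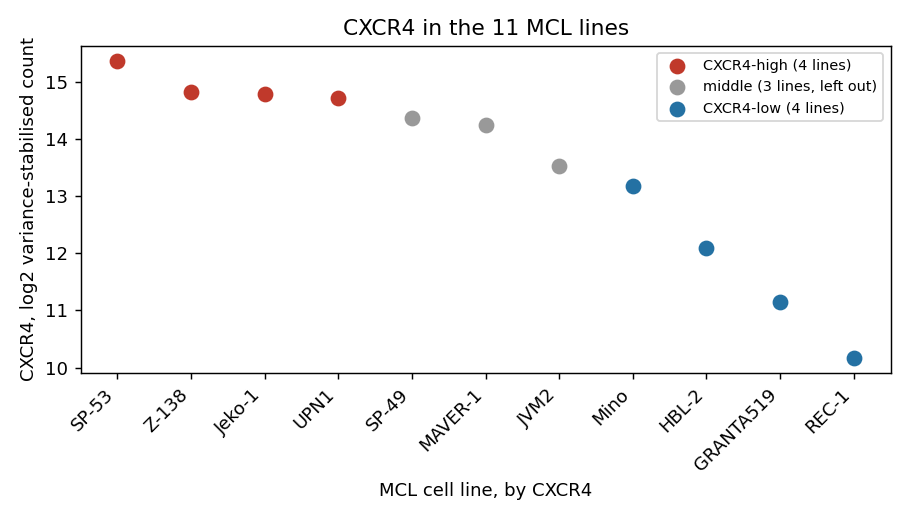
CXCR4 as log2 variance-stabilised count (y axis) in the 11 MCL lines, ordered by that value (x axis); each point is 1 library, red for the 4 CXCR4-high lines, grey for the middle 3 and blue for the 4 CXCR4-low lines. The high lines span 14.71 to 15.37 and the low lines 10.17 to 13.18, and the steps at both bounds are small beside the range of the low group.

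The libraries of the groups were alike in depth, with 60.1 to 109 M reads in CXCR4-high and 66.9 to 103 M reads in CXCR4-low lines. Mitochondrially encoded genes held 4.78% to 11.6% of the reads in CXCR4-high and 5.53% to 9.11% in CXCR4-low lines. The defining MCL genes were present in all 8 lines. CCND1, which encodes cyclin D1, was between 16.28 and 17.35 in CXCR4-high and between 15.27 and 17.10 in CXCR4-low lines. SOX11, a transcription factor used to diagnose MCL, was between 10.63 and 11.78 in CXCR4-high and between 9.26 and 11.42 in CXCR4-low lines. The 6 B-cell markers together had 108518 to 517112 reads in CXCR4-high and 193494 to 375832 in CXCR4-low lines. Of 7 myeloid markers used here 2 passed the filter on low values, and the 7 together had 11 to 143 reads in CXCR4-high and 17 to 640 in CXCR4-low lines. Of 7 stromal and endothelial markers 2 passed. The 7 together had 188 to 5891 reads in CXCR4-high and 37 to 1567 in CXCR4-low lines. The 10 T- and NK-cell markers had 947 to 6209 reads in CXCR4-high and 112 to 19308 in CXCR4-low lines. Of these 6 passed the filter, while CD3D, CD2, NCAM1 and NKG7 did not. SP-53 stood out among the lines by its likeness to the middle line SP-49, with a correlation of 0.97 across 16321 genes, above the 0.92 of the next pair of MCL lines, UPN1 and MAVER-1.

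CXCR4 was left out of the test, and no other gene differed between CXCR4-high and CXCR4-low lines past the threshold. Limma called 0 of 16320 genes at a Benjamini-Hochberg adjusted p under 0.05, a background of 0.0%, and the smallest adjusted p, 0.474, was that of TRPM2. At an unadjusted p under 0.05 limma had 594 genes, or 3.64%, with 356 higher (2.18%) and 238 lower (1.46%) in CXCR4-high lines. That split depended on scaling, since centring each library on its median gave 262 higher and 300 lower genes. With limma's voom on the recovered reads, 0 genes were called and 548 had an unadjusted p under 0.05. The values of the 4 CXCR4-high lines all lay above those of the 4 CXCR4-low lines for 217 genes, 1.33% of those tested, and all below for 124 genes, 0.76%, or 2.09% in either direction. For lines drawn at random into 4 against 4, a gene fails to overlap with a probability of 0.0286, above the 2.09% seen. Over all genes 54.6% of the differences were positive, and the median difference was 0.05 on the log2 scale. The genes described next are those with the smallest p whose groups did not overlap, and none of them passed the threshold.

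The genes higher in CXCR4-high lines included a pair of inhibitors of cyclin-dependent kinases. CDKN1B encodes p27, a known FOXO target. CDKN1B was 11.74 in SP-53, 12.22 in Z-138, 11.49 in Jeko-1 and 11.36 in UPN1, against 10.22 in Mino, 11.12 in HBL-2, 10.36 in GRANTA519 and 10.61 in REC-1. UPN1 and HBL-2 were the nearest lines of the groups, and the difference was 1.13 ± 0.30 (SE, limma). CDKN1C encodes p57, an inhibitor of the same family. CDKN1C was 9.51 in SP-53, 12.46 in Z-138, 9.98 in Jeko-1 and 10.66 in UPN1, against 8.05 in Mino, 7.87 in HBL-2, 8.64 in GRANTA519 and 7.72 in REC-1. Z-138 stood highest, and the difference was 2.58 ± 0.61. LDLRAD4, a membrane protein known to dampen TGF-beta signalling, was 10.57 in SP-53, 9.91 in Z-138, 10.44 in Jeko-1 and 9.89 in UPN1, against 8.26 in Mino, 7.41 in HBL-2, 8.33 in GRANTA519 and 6.66 in REC-1. The gap between the groups was wider than the spread within the CXCR4-high lines, and the difference was 2.54 ± 0.45 with a limma adjusted p of 0.764. The 3 middle lines, which took no part in the test, had LDLRAD4 between 9.78 and 10.93, at the level of the CXCR4-high lines.

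The other genes on the higher side were of several functions. KLHL24, a substrate adaptor of a ubiquitin ligase, was between 10.14 and 10.56 in CXCR4-high and between 9.01 and 9.64 in CXCR4-low lines, a difference of 1.15 ± 0.28. PLCL2, a catalytically inactive phospholipase C-like protein expressed in blood cells, was between 11.28 and 11.72 in CXCR4-high and between 10.42 and 10.79 in CXCR4-low lines. NFATC4, a calcineurin-regulated transcription factor, was between 11.09 and 12.07 in CXCR4-high and between 8.54 and 10.80 in CXCR4-low lines. For all 3 genes the CXCR4-high lines were closely grouped, and UPN1 was the lowest of them for KLHL24 and SP-53 for PLCL2 and NFATC4. LMCD1, a LIM-domain protein, had 722 to 7506 reads in CXCR4-high lines, against 315 in Mino, 1 in HBL-2, 255 in GRANTA519 and 2 in REC-1. ZNF629, NOXA1, CPNE2 and FAM118A differed by between 1.39 and 2.16 and were also among the 12.

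On the lower side the genes with the smallest p in the table encode a cation channel and an enzyme of prostanoid synthesis. TRPM2, a calcium-permeable channel opened by ADP-ribose and oxidative stress, was 8.70 in SP-53, 8.15 in Z-138, 7.36 in Jeko-1 and 7.30 in UPN1. In the CXCR4-low lines TRPM2 was 10.56 in Mino, 10.95 in HBL-2, 10.92 in GRANTA519 and 10.76 in REC-1, a tight group that lay well above every CXCR4-high line. The difference was -2.92 ± 0.39. TRPM2 did not follow CXCR4 through the middle lines, where JVM2 had 7 reads of the gene and MAVER-1 had 2617. TBXAS1, thromboxane synthase, had 31 reads in SP-53, 180 in Z-138, 50 in Jeko-1 and 273 in UPN1, against 1584 in Mino, 5570 in HBL-2, 1008 in GRANTA519 and 4690 in REC-1. The values differed by -3.67 ± 0.56, with a limma adjusted p of 0.522. The 3 middle lines had TBXAS1 values between 6.17 and 8.20, which reach from the CXCR4-high range into the gap between the groups.

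RASSF5, also called RAPL, binds the GTPase RAP1 and links chemokine signals to integrin adhesion in lymphocytes. RASSF5 was at least 10.33 in CXCR4-high lines, where Z-138 was highest, and between 11.45 and 12.23 in CXCR4-low lines, a difference of -1.11 ± 0.28. RIPK2, the kinase that carries signals of the NOD receptors to NF-kB, was between 8.90 and 9.81 in CXCR4-high and between 10.25 and 10.69 in CXCR4-low lines, a difference of -1.10 ± 0.31. NEDD4L, a ubiquitin ligase, was between 8.69 and 10.03 in CXCR4-high and between 10.22 and 11.47 in CXCR4-low lines. ITM2C, a membrane protein abundant in plasma cells, was at least 11.89 in CXCR4-high lines, where UPN1 was highest, and between 13.54 and 15.43 in CXCR4-low lines, where REC-1 was highest. ASB13, MACC1, ARMC10, GOLT1B, NUDCD1 and TXNL1 make up the rest of the 12, with differences between -1.93 and -0.95. All 24 genes kept their direction under each of the 19 alternative settings, and the smallest adjusted p that limma gave any of them there was 0.0996. For genes chosen for groups that do not overlap, leaving out lines cannot change the direction. The settings of the filter, the prior and library origin, and the fit with the middle lines as a group, returned the same differences. Only the scaling, voom and the slope over 11 lines could have changed a direction. Several of the 24 lie over other annotated genes, such as TRPM2-AS at TRPM2, LINC00312 at LMCD1, EIF2D at RASSF5 and ENTPD8 at NOXA1, and the counting strand is not given in the sources used here.

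**Figure D2:**
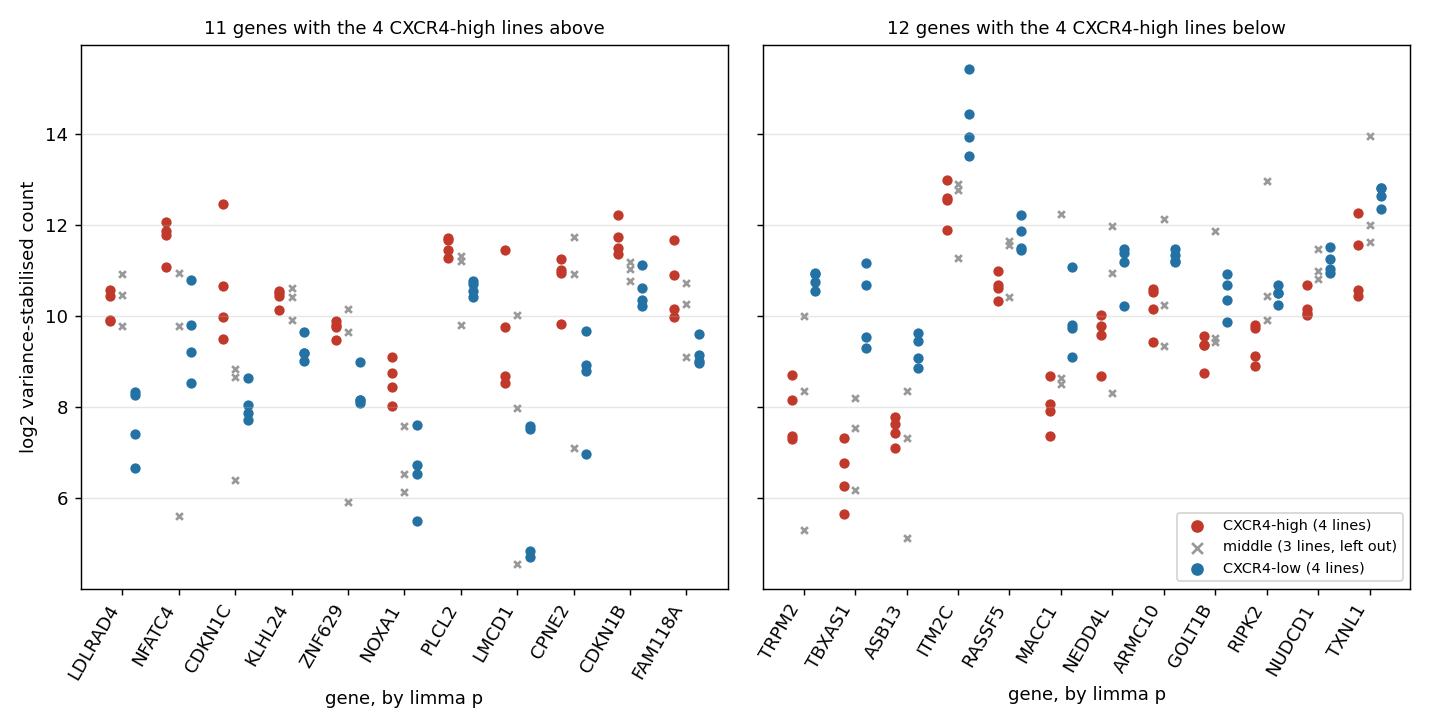
Log2 variance-stabilised counts (y axis) of 11 of the 12 higher genes (left) and 12 lower genes (right) in the 11 MCL lines, with genes ordered by limma p (x axis); red points are the 4 CXCR4-high lines, blue points the 4 CXCR4-low lines and grey crosses the middle 3. The groups do not overlap for any gene because the genes were chosen so, and the middle lines fall on either side.

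The ligands and partner receptors of CXCR4 did not separate the groups. CXCL12 had 166 reads in SP-53 and 0 in Z-138, Jeko-1 and UPN1, against 172 reads in GRANTA519 and 0 in Mino, HBL-2 and REC-1. The ligand was thus listed with reads in a single line of each group, and the middle line SP-49 had 2172 reads. ACKR3, the atypical receptor that also binds CXCL12, was between 4.73 and 8.19 in CXCR4-high and between 6.04 and 9.38 in CXCR4-low lines. MIF, another ligand of CXCR4, was between 10.37 and 13.24 in CXCR4-high and between 9.77 and 12.87 in CXCR4-low lines, and its difference was 0.07 ± 0.79. CD74, the invariant chain and a MIF receptor, was between 16.96 and 18.25 in CXCR4-high and between 15.82 and 17.96 in CXCR4-low lines, a difference of 0.64 ± 0.64. The interval of these differences is wide beside their size, so the data do not show that the levels are alike.

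Among 22 tested chemokines and chemokine receptors, 4 had a positive and 18 a negative difference, and the median was -0.43, against 0.05 over all genes tested. None passed the threshold and none had groups that did not overlap. Leaving out a line gave medians between -0.69, without Jeko-1, and -0.13, without Z-138. It was -1.42 with voom on the recovered reads and -0.19 with the lines marked as re-analysed only. CCR7, the receptor that guides cells to the T zone of lymph nodes, was 13.39, 12.04, 11.25 and 9.31 in SP-53, Z-138, Jeko-1 and UPN1, against 13.07, 10.38, 11.75 and 6.61 in Mino, HBL-2, GRANTA519 and REC-1. CXCR5, the receptor for follicular entry, was 13.01, 7.53, 9.25 and 6.35 in the same CXCR4-high lines, against 11.05, 8.84, 6.65 and 13.66 in the CXCR4-low lines. Both receptors varied by several log2 units within each group, and REC-1 had the lowest CCR7 and the highest CXCR5. CCL3, an inflammatory chemokine secreted by activated B cells, was 10.56, 7.20, 8.12 and 7.31 in the CXCR4-high lines, against 14.20, 6.89, 14.14 and 7.75 in the CXCR4-low lines. Mino and GRANTA519 carried the high values, and CCL4, its neighbour on chromosome 17, was also highest there, at 13.87 and 12.28.

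**Figure D3:**
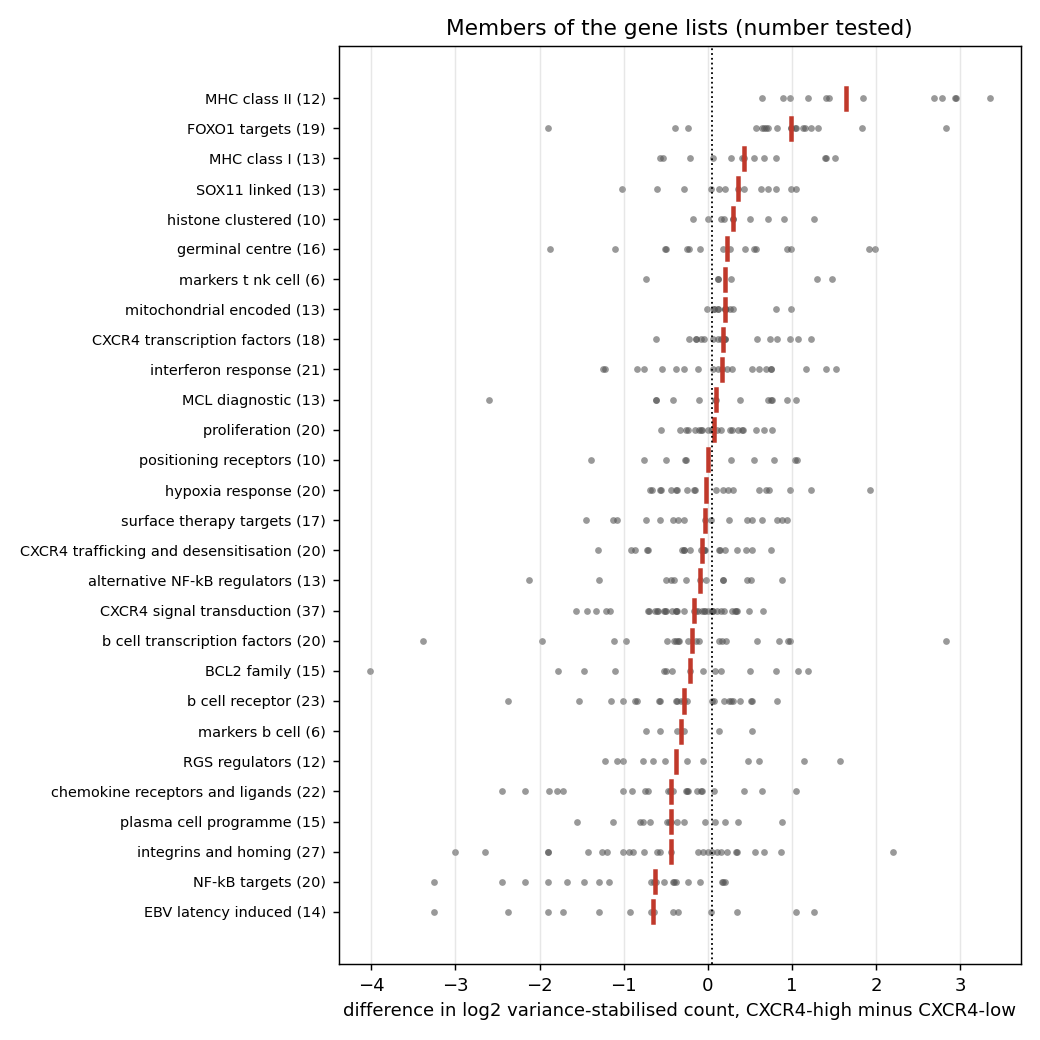
Difference in log2 variance-stabilised count, CXCR4-high minus CXCR4-low (x axis), for the tested members (grey points) of each gene list with 6 or more of them (y axis, number tested in brackets); the red bar is the list's median and the dotted line the median of all genes, 0.05. MHC class II genes and FOXO1 targets lie farthest to the right, and NF-kB targets and genes induced in EBV latency farthest to the left.

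The genes for proteins that carry the CXCR4 signal had mostly negative differences in RNA. Of 37 tested members, 13 had a positive and 24 a negative difference, with a median of -0.17, and 0 passed the threshold. Over all genes 54.6% of the differences were positive. With CXCR4 as a slope over all 11 MCL lines, 16 of the 37 were positive. The median difference of the list was between -0.32, without GRANTA519 or without SP-53, and -0.08, without Jeko-1. AKT1, a kinase downstream of phosphoinositide 3-kinase, was the 1 member of 37 whose groups did not overlap, beside 2.09% of all genes in either direction. AKT1 was 12.19 in SP-53, 12.42 in Z-138, 12.22 in Jeko-1 and 12.17 in UPN1, against 12.60 in Mino, 14.88 in HBL-2, 13.36 in GRANTA519 and 12.81 in REC-1. The CXCR4-high lines were tightly grouped while HBL-2 stood far above the others, and the difference was -1.17 ± 0.47. PTK2, focal adhesion kinase, had 792 reads in SP-53, 1 in Z-138, 1 in Jeko-1 and 5 in UPN1, against 104 in Mino, 6 in HBL-2, 104 in GRANTA519 and 299 in REC-1. SP-53 alone had more than 5 PTK2 reads among the CXCR4-high lines, and the groups overlapped. GNAI2, the main Gi subunit of lymphocytes, differed by -0.07 ± 0.43, and the receptor kinase GRK2 by -0.04 ± 0.28. Of 20 genes for desensitisation and trafficking 7 had a positive difference, with a median of -0.06.

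Listed FOXO1 targets were mostly higher in CXCR4-high lines. Of 19 tested members 16 had a positive difference, against 54.6% of all genes, and their median was 0.99, against 0.05 over all genes. None passed the threshold, and the CXCR4-high lines all lay above for 3 of the 19, CDKN1B, KLHL24 and PIK3IP1, beside 1.33% of all genes. PIK3IP1, an inhibitor of phosphoinositide 3-kinase, was 9.30 in SP-53, 8.89 in Z-138, 8.18 in Jeko-1 and 8.64 in UPN1, against 8.12 in Mino, 7.66 in HBL-2, 8.12 in GRANTA519 and 5.86 in REC-1. Jeko-1, Mino and GRANTA519 almost met, and the difference was 1.31 ± 0.57. BACH2, a repressor that holds back plasma cell differentiation, was 11.02 in SP-53, 10.58 in Z-138, 11.86 in Jeko-1 and 12.47 in UPN1, against 8.70 in Mino, 10.91 in HBL-2, 7.76 in GRANTA519 and 7.26 in REC-1. HBL-2 reached into the CXCR4-high range, and the difference of 2.83 ± 0.77 was the highest of the list. KLF2, a factor that keeps lymphocytes quiescent, was 12.85 in SP-53 but 7.85 in UPN1, below all CXCR4-low lines, whose range was 8.86 to 10.26. The median of the list was 0.42 when SP-53 was left out, with 15 positive members, and it was between 0.74 and 1.07 when any other line was left out. The list was chosen with earlier results of these data known and does not hold BCL2L11, also known as a FOXO target. BCL2L11, given below, went the other way, with few reads in all CXCR4-high lines and in Mino and more in the other CXCR4-low lines. FOXO1 itself was 10.64 in SP-53, 9.97 in Z-138, 10.61 in Jeko-1 and 12.06 in UPN1, against 10.02 in Mino, 11.25 in HBL-2, 8.47 in GRANTA519 and 9.62 in REC-1. The groups overlapped, and the difference in FOXO1 was 0.98 ± 0.62. NRF1, whose half-site stands in the CXCR4 promoter shown above, differed by 0.20 ± 0.28.

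The genes listed for MHC class II, the molecules that present peptides to CD4 T cells, all had positive differences. The list holds CIITA and CD74, the invariant chain, beside the HLA genes. The 12 tested members had a median of 1.64, none passed the threshold and none had groups that did not overlap. HLA-DRA, the alpha chain of HLA-DR, was 17.21 in SP-53, 16.28 in Z-138, 17.11 in Jeko-1 and 15.44 in UPN1, against 15.65 in Mino, 14.92 in HBL-2, 16.70 in GRANTA519 and 5.37 in REC-1. REC-1 had 16 reads of HLA-DRA, where the other 7 lines had 103120 to 335645, and it had 0 reads of HLA-DOA and HLA-DQA1. The median of the list was 0.57 without REC-1, with 10 of 12 members positive, against 2.73 without GRANTA519 and 2.61 without Mino, and it was 2.92 with voom on the recovered reads. CIITA, the transactivator of class II genes, was 12.53 in SP-53, 12.32 in Z-138, 11.94 in Jeko-1 and 11.97 in UPN1, against 10.85 in Mino, 11.30 in HBL-2, 12.13 in GRANTA519 and 10.95 in REC-1. CIITA was thus present in REC-1 at the level of Mino, and GRANTA519 reached into the CXCR4-high range. REC-1 also had the lowest values of the class I genes HLA-B and HLA-E, at 10.07 and 6.45, whereas the lowest of the other 7 lines was 14.33 and 12.05. Reads of these paralogous genes may be shared among them, so single HLA values are uncertain.

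**Figure D4:**
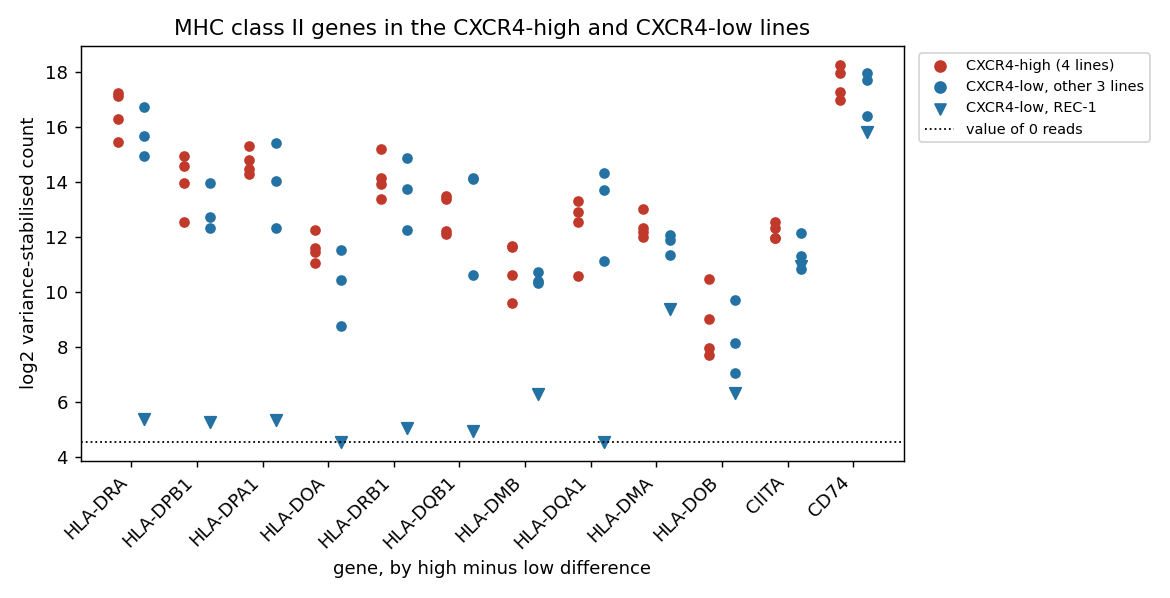
Log2 variance-stabilised counts (y axis) of the 12 genes listed for MHC class II, ordered by the difference (x axis), in the 4 CXCR4-high lines (red) and the CXCR4-low lines (blue), with REC-1 as triangles and the value of 0 reads as a dotted line. REC-1 lies near the value of 0 reads for most HLA class II genes, while its CIITA at 10.95 and CD74 at 15.82 do not.

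NF-kB target genes had mostly negative differences. Of 20 tested members 3 had a positive difference, and the median was -0.63, with 0 past the threshold and no member with groups that did not overlap. EBI3, a subunit of interleukins 27 and 35 induced in activated B cells, was 10.81 in SP-53, 4.91 in Z-138, 6.73 in Jeko-1 and 4.55 in UPN1, against 9.80 in Mino, 7.67 in HBL-2, 11.32 in GRANTA519 and 11.24 in REC-1. ICAM1, the adhesion ligand of LFA-1, was 9.86 in SP-53, 11.77 in Z-138, 8.71 in Jeko-1 and 8.53 in UPN1, against 12.30 in Mino, 9.94 in HBL-2, 12.77 in GRANTA519 and 11.42 in REC-1. For each gene a CXCR4-high line, SP-53 or Z-138, lay within the CXCR4-low range, and the differences were -3.26 ± 1.37 for EBI3 and -1.89 ± 0.81 for ICAM1. The median of the list was -0.29 without GRANTA519, -0.36 without UPN1, -0.996 without HBL-2 and -1.09 without SP-53. Across all 11 MCL lines, with CXCR4 as a slope, 9 of the 20 had a positive slope and the median was -0.01 per log2 unit of CXCR4.

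Among the other lists, the 14 tested genes induced in EBV latency had a median of -0.66, with 4 positive, and the list shares members such as EBI3 and ICAM1 with the NF-kB targets. Its median was -0.13 without GRANTA519, with 6 positive, -0.33 without UPN1 and -1.14 without SP-53. With CXCR4 as a slope over all 11 MCL lines, 7 of the 14 were positive, at a median of -0.07 per log2 unit. The median was -0.44 for 27 integrin and homing genes and -0.44 for 15 genes of the plasma cell programme. It was -0.38 for 12 RGS genes and 0.42 for 13 MHC class I genes. These medians depended on single lines. Leaving out a line gave -0.67 to 0.01 for the integrin list and -0.68 to 0.05 for the plasma cell list. For the RGS list it gave -0.79 to -0.13, and for class I -0.18, without REC-1, to 0.90. Of 20 proliferation genes 11 had a positive difference, with a median of 0.07, and the groups did not overlap for MCM3, a subunit of the replicative helicase, at 14.01 to 14.57 in CXCR4-high and 13.47 to 13.92 in CXCR4-low lines. Of 20 hypoxia response genes 10 were positive. Among these EGLN3, a HIF prolyl hydroxylase, separated the groups, at 9.45 to 10.65 in CXCR4-high and 8.15 to 9.40 in CXCR4-low lines. Of 21 interferon response genes 13 were positive, and OASL, an antiviral protein, separated the groups at 5.78 to 8.19 in CXCR4-high and 5.04 to 5.64 in CXCR4-low lines. MCM3, EGLN3 and OASL were each the only such member of their list, beside 2.09% of all genes in either direction. They are not read as a result about these lists. SOX11 differed by 0.72 ± 0.49 and CCND1 by 0.76 ± 0.57, neither past the threshold. Some genes named here after their values were seen had wide differences with overlap. BCL2L11, which encodes the death inducer BIM, had 1 read in SP-53, 3 in Z-138, 0 in Jeko-1 and 62 in UPN1, against 2 in Mino, 9986 in HBL-2, 1579 in GRANTA519 and 2063 in REC-1. Mino thus sat with the CXCR4-high lines. CCND2, which encodes cyclin D2, had at most 67 reads in CXCR4-high lines, against 902 in Mino, 5555 in HBL-2, 510 in GRANTA519 and 0 in REC-1.

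Lines of the other pathologies, which played no part in the ranking, were used to ask whether the same genes followed CXCR4 there. In 14 lines whose libraries were of the same kind as those of MCL, with 6 GCB DLBCL, 5 ABC DLBCL and 3 BL lines, each gene was given a slope on CXCR4 with pathology as a covariate. Limma called 0 of 16320 genes past the threshold, a background of 0.0%, and 880 genes, or 5.39%, had an unadjusted p under 0.05, with 425 positive (2.6%) and 455 negative (2.79%). A positive slope was found for 57.1% of the 217 genes whose CXCR4-high lines all lay above, against 50.4% of all genes tested. A negative slope was found for 56.5% of the 124 genes whose CXCR4-high lines all lay below, against 49.6% of all genes tested. Of the 24 named genes, 9 of the 12 higher and 9 of the 12 lower genes had a slope of the same direction, and 0 had an unadjusted p under 0.05. LDLRAD4 had a slope of 0.49 ± 0.23 per log2 unit of CXCR4 and CDKN1B of 0.19 ± 0.26, while CDKN1C had -0.18 ± 0.09, TRPM2 0.15 ± 0.30 and TBXAS1 -0.03 ± 0.10. A test of the difference between the slope in MCL and in the other lines, over 25 libraries, had 0 genes past the threshold with limma and 743 with an unadjusted p under 0.05, and TBXAS1 had an adjusted p of 0.201.

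**Figure D5:**
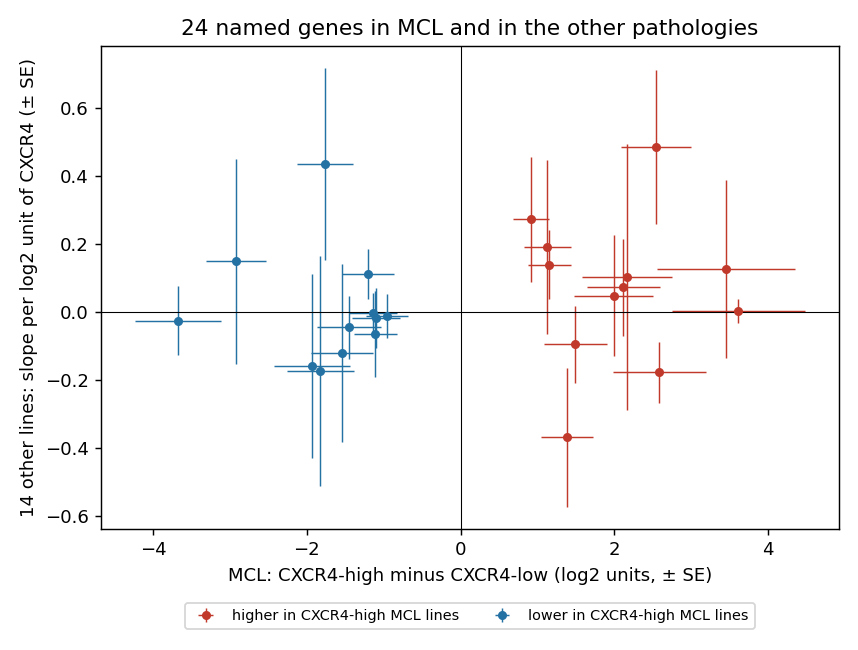
Slope on CXCR4 in the 14 lines of the other pathologies (y axis, per log2 unit of CXCR4, ± SE) against the difference between CXCR4-high and CXCR4-low MCL lines (x axis, log2 units, ± SE) for the 24 named genes, red for the 12 higher and blue for the 12 lower. In each colour 9 of 12 points lie on the side of the MCL direction, and most error bars cross 0.

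Some genes that separated the MCL groups also had an unadjusted p under 0.05 for the slope elsewhere, though none an adjusted one. Of the 217 genes 6 had such a slope in the same and 4 in the opposite direction, and of the 124 genes 4 in the same and 2 in the opposite direction. Of all genes tested 5.39% had such a slope in either direction, so the separated genes had it no more often than others. The genes named from these counts were chosen after their values were seen. ZEB2, a zinc-finger repressor, had a slope of 0.77 ± 0.15 in the other pathologies. In MCL ZEB2 was 11.18 in SP-53, 10.91 in Z-138, 11.21 in Jeko-1 and 11.13 in UPN1, against 10.77 in Mino, 10.86 in HBL-2, 10.21 in GRANTA519 and 10.03 in REC-1. The MCL groups were close, and the middle line JVM2 was near the value of 0 reads at 5.25. PHLDB2, a protein of the cell cortex, had a slope of 0.59 ± 0.15, and in MCL it was 7.48 to 9.11 in CXCR4-high and 5.01 to 5.99 in CXCR4-low lines. AKT1 had the opposite sign, with a slope of 0.13 ± 0.04 in the other pathologies against its difference of -1.17 in MCL. Of the FOXO1 targets 13 of 19 had a positive slope there, with a median of 0.15, and of the MHC class II genes 8 of 12, with a median of 0.07, against 50.4% positive slopes over all genes tested. The NF-kB targets had 7 of 20 positive slopes, with a median of -0.09, and the genes induced in EBV latency 2 of 14, with a median of -0.22. Other lists had the opposite sign to MCL, with positive slopes for 15 of 22 chemokine genes, at a median of 0.06, and for 8 of 12 RGS genes, at a median of 0.05.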

How the data were processed

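RNA of 34 lymphoma lines was measured by sequencing, with 1 library per line. The table deposited by the authors held log2 variance-stabilised counts of 31975 genes. Per the submitters' processing notes, build GRCh38 was used with DESeq2 1.26.0, STAR 2.5.3a and R 3.6.1; the counter, annotation and strand are not given in the sources used here. The transform compresses differences of low genes. Inverting it gave whole reads, within 0.05, for 100% of the values, and reads are given only where named.

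Groups came from the CXCR4 value itself, and the members and gene lists were chosen with earlier results of these data known. Tested genes lay over 1 log2 unit above the lowest value in 3 or more MCL lines, which gave 16320 besides CXCR4. R 4.3.3 and limma 3.58.1 compared 4 with 4 lines, two-sided, under a prior that depends on intensity, with Benjamini-Hochberg adjustment over all these genes and a threshold of 0.05. The script was tested on simulated data. Tables were made in Python 3.11.15 with NumPy 2.4.6 and pandas 2.3.3. Where fewer than 12 genes passed in a direction, those named were the 12 of smallest p without overlap, at a mean of 3 or more log2 units above the lowest value, leaving out immunoglobulin, T-cell receptor and sex-linked marker genes and genes without a symbol. Each list added up to 3 members without overlap, and CXCL12, ACKR3, MIF, CD74, SOX11, CCND1 and PTK2 were given in any case. Libraries with reads of ZNF593 and EMC6 formed the kind used from the other pathologies. Alternatives covered the filter, scaling, prior, library origin, a slope over 11 lines, voom on the recovered reads and leaving out each line; the interaction of slopes and the list medians under each setting were added after seeing the data. Gene symbols matched for 31574 identifiers. Some single-gene results are not reported here.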

Additional observations from a re-analysis of the deposited data

Results flagged for a closer look

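In 122 groups of 4 lines, for the named genes and list members that were checked, a line was tested for standing far from the other 3 of its group. Chance gives this in about 1 of 20 groups, and 7 did so, which is near that rate. In CXCR4-high lines SP-53 stood apart for 2 genes, with CXCL12 at 6.87 and PTK2 at 8.65, both above the other CXCR4-high lines. In CXCR4-low lines REC-1 stood below the others for HLA-DRA at 5.37 and HLA-DMB at 6.29. HBL-2 stood above the other CXCR4-low lines for ZNF629 at 8.98 and below them for MIF at 9.77. GRANTA519 stood above the other CXCR4-low lines for CXCL12 at 7.15. For CXCL12 the other lines of both groups sat at the lowest value, 4.55, so a single line with reads was certain to be flagged.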

How the results depend on the processing

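With 4 lines a side, limma called 0 genes in the comparison of CXCR4-high with CXCR4-low lines under every alternative of the filter, scaling, prior, origin and slope that was run, and 0 with voom. Leaving out a line gave between 0 and 1 calls. Without SP-53 the call was MDFIC, lower in CXCR4-high lines (limma adjusted p = 0.035), and without REC-1 it was IGLL5, higher (limma adjusted p = 0.0115), and the cause was not tested. For the slope on CXCR4 in the other pathologies, the fit to all 23 lines with the kind of library as a covariate called 3 genes, namely GALNT2, WWC3 and RUBCNL, against 0 in the 14 lines, in a fit with more lines. The other settings of that slope called 0. Of the 411 other list members, 217 changed sign under at least 1 setting, so the direction of a single member depends on the setting for many. With median-centred values the FOXO1 targets had 16 of 19, the class II genes 12 of 12 and the NF-kB targets 3 of 20 positive. Centring moved the median difference of all genes from 0.05 to -0.02. Low genes moved most with voom, such as LMCD1 at 6.59 against 3.45. No paired analysis was possible because each line has 1 library and the replicate numbers only name lines.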

Other observations

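Genes that separated the groups were spread unevenly over chromosomes, which was noticed after the values were seen and is given without a test. On chromosome 13, 16 of 276 tested genes had all CXCR4-high lines above all CXCR4-low lines and 0 had them below, against 1.33% and 0.76% of all genes, and the median difference there was 0.52. The median deviation of its genes from their mean over the 11 MCL lines was 0.80 in UPN1, 0.31 in Jeko-1, 0.16 in Z-138 and -0.03 in SP-53, against 0.00 in Mino, 0.01 in GRANTA519, -0.14 in HBL-2 and -0.71 in REC-1, so UPN1 and REC-1 lay farthest from 0. These 16 included DLEU7, a gene of the 13q14 region, at a difference of 4.22 ± 0.65, the growth factor gene FGF9 at 2.60 ± 0.46 and the ubiquitin ligase gene TRIM13 at 2.53 ± 0.97. On chromosome 8, 17 of 490 genes had all CXCR4-high lines below and 3 had them above, with a median difference of -0.22. The median deviation there was -0.45 in Jeko-1, -0.16 in Z-138, -0.11 in UPN1 and 0.08 in SP-53. It was 0.01 in Mino, 0.04 in HBL-2, 0.10 in GRANTA519 and 0.24 in REC-1. Jeko-1 thus lay farthest from 0, and SP-53 lay within the CXCR4-low range. These 17 included the named genes RIPK2 and NUDCD1, the DNA repair gene NBN at -1.23 ± 0.39 and MTDH at -1.16 ± 0.34.

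Other members of the gene lists differed by more than 1 log2 unit with an unadjusted limma p under 0.05, though their groups overlapped. BHLHE41, a transcription factor of B cells, was 8.65, 5.64, 9.47 and 5.27 in SP-53, Z-138, Jeko-1 and UPN1, against 9.48, 11.45, 8.91 and 12.72 in Mino, HBL-2, GRANTA519 and REC-1. RGS19, which speeds the shut-off of Gi proteins, was 12.22, 11.39, 11.17 and 11.21 in the CXCR4-high lines, against 12.41, 12.52, 11.90 and 14.04 in the CXCR4-low lines. ITGA3, an integrin subunit that binds laminin, was 9.32, 10.37, 8.61 and 7.77 in the CXCR4-high lines, against 5.97, 6.41, 9.16 and 5.72 in the CXCR4-low lines. In each case a single line or a pair of lines crossed into the other group.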
